A study of Homo sapiens with 8 samples.

Results

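Jurkat cells given dTAG-13 to degrade the transcription factor TAL1 were set directly, gene by gene, against cells given GSI to block NOTCH processing. The libraries hold RNA only, so neither the loss of TAL1 protein nor the block was measured. The comparison took the 2 libraries labelled dTAG-13 and the 2 labelled GSI, which are 4 of the 8 libraries in all, by their labels. Jurkat is a human T-cell acute leukemia line. The derivative used here is labelled TAL1-FKBP12, a fusion of TAL1 to the tag that dTAG-13 recognizes, and this tag is carried by all 8 libraries, controls included. dTAG-13 is a small molecule that brings a tagged protein to the cereblon ubiquitin ligase, which leads to its degradation. GSI is the usual abbreviation of gamma-secretase inhibitor. All cells grew in RPMI with tetracycline-free serum and were taken after 24 hours in DMSO (the solvent control), dTAG-13, GSI, or the combination of dTAG-13 and GSI, with 2 libraries each. The labels give no dose, and they do not say whether the line is 1 clone or whether the libraries of a group are different cultures. The p-values therefore rest on the spread between these libraries, which may be technical. No untagged line was among the samples, so effects of dTAG-13 through TAL1 and through other proteins cannot be told apart, and the same holds for GSI and the other substrates of gamma-secretase.

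TAL1 is a basic helix-loop-helix protein that pairs with E proteins such as E2A and HEB, binds the DNA sequence called the E-box with GATA3, RUNX1, LMO and LDB1 proteins, and drives a self-sustaining circuit in T-cell leukemia. Free E proteins activate genes of thymocyte development, among them the recombinase genes and the pre-T-cell receptor gene, and ID proteins and TAL1 hold E proteins in check. NOTCH receptors are cut by gamma-secretase after they meet a ligand, and the part released goes to the nucleus and joins the DNA-binding protein RBPJ to switch on genes such as HES1, DTX1 and MYC. NOTCH1 and TAL1 are both common drivers of T-cell acute leukemia.

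The 8 libraries held 17544319 to 22180009 counts, with 21838145 and 22180009 for dTAG-13 and 20770885 and 21048411 for GSI. Mitochondrially encoded transcripts took 7.8 to 8.81% of the counts. Levels are given as CPM, the counts of a gene scaled to the same total in every library. Summed T cell markers stood at 3450 to 3920 CPM in the 4 compared libraries, with TRBC1 listed at 0, and summed myeloid markers at 0.513 to 1.01 CPM. The same-group libraries correlated at 0.992 to 0.993 in log2 CPM, and the GSI pair differed more (chi-square per degree of freedom 13.9) than the dTAG-13 pair (6.11).

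The promoters of 3 called genes are shown because they hold DNA letters that the 2 pathways are known for, and they were chosen for these matches after the search. HES1 and HES4 are textbook RBPJ targets, and PTCRA is known to be driven by both E proteins and NOTCH. Each line is the 250 bases before the RefSeq start in GRCh38.p14, read along the gene. HES1 lies at chr3:194135898-194136147 (plus strand), HES4 at chr1:1000098-1000347 (minus strand) and PTCRA at chr6:42915803-42916052 (plus strand). Capitals mark the RBPJ core TGGGAA in the HES genes and the E-box CAGCTG in PTCRA.
HES1: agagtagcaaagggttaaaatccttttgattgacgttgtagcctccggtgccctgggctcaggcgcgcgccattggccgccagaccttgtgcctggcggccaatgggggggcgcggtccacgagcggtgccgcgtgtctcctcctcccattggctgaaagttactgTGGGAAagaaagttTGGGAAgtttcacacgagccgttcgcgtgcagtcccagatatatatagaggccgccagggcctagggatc
HES4: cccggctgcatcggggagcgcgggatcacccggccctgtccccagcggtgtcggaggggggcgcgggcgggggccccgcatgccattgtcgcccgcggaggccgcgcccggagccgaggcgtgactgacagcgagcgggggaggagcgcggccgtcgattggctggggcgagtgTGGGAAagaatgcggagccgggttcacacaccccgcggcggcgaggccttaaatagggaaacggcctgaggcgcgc
PTCRA: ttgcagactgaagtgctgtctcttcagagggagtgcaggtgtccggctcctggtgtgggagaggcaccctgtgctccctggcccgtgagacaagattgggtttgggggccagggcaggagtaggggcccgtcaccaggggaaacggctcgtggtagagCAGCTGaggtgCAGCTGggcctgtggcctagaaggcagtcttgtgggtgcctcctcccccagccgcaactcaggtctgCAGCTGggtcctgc
Motifs were searched on both strands, and CAGCTG reads the same on both. HES1 held 2 matches to TGGGAA and HES4 held 1, while PTCRA held 3 matches to CAGCTG. Among 27305 promoters of this length, 21.1% held TGGGAA at least once and 2.92% at least 2 times, and 13.8% held CAGCTG at least once and 0.0916% at least 3 times. The TAL1 and E protein E-box CAGATG, found in 12.2% of these promoters, had 0 matches in all 3. CR2, SH3TC1, NOTCH3, ID1, RHOU and IGF1R, which also had large differences, held 0 matches to any of these motifs. HEYL and CD8A, which were not called, held 2 matches each to TGGGAA, and STAT5A, also not called, held 3 to CAGCTG. A match is a description of these letters, not a site shown to be bound. Motif shares were not compared between gene groups, because a promoter was at hand for 61.2% of the genes tested, which leaves such a check void.

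Of 63677 genes listed, 15646 had enough counts to be tested. A gene is called when its adjusted p is under 0.05 (edgeR's quasi-likelihood test, Benjamini-Hochberg over all genes tested), and differences are log2 values of dTAG-13 minus GSI. With dTAG-13, 209 genes (1.34%) were called higher than with GSI and 335 (2.14%) lower, together 544 (3.48%). At least a 2-fold difference was found for 54 of the higher and 71 of the lower genes, and the median difference over all genes was -0.00325. Over all genes tested, 7730 differences were positive and 7916 negative, and 2720 of the 15646 had an unadjusted p under 0.05. Against DMSO, the same fit called 3 genes for dTAG-13 (0.0192%) and 272 for GSI (1.74%). The 3 genes were PLCH1, CD40LG and ALDH1A2. Every other gene named below fell short of the threshold for dTAG-13 against DMSO. The counts rest on each library: without dTAG-13 replicate 1 they were 71 higher and 138 lower, without dTAG-13 replicate 2 they were 59 and 102, without GSI replicate 1 they were 87 and 194, and without GSI replicate 2 they were 311 and 344. With the 4 compared libraries fitted alone, 106 genes were called higher and 196 lower.

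**Figure D1:**
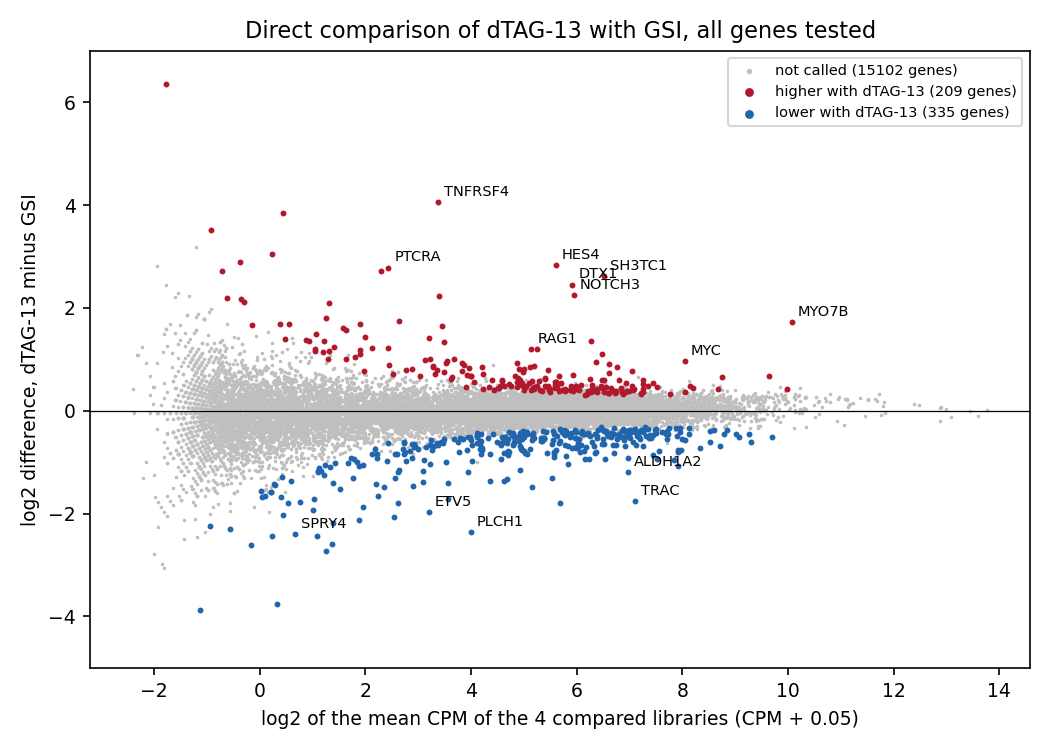
Log2 difference of dTAG-13 minus GSI (vertical) against the log2 mean CPM of the 4 compared libraries (horizontal), 1 point per gene tested. Red points are the 209 genes called higher with dTAG-13, blue points the 335 called lower, grey points were not called. TNFRSF4, HES4, SH3TC1, PTCRA and DTX1 stand at the top and PLCH1, ETV5 and TRAC near the bottom at their levels.

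The direct difference does not tell which compound moved a gene, so the DMSO libraries, which took no part in the contrast, were placed on a scale from 0 (the GSI mean) to 1 (the dTAG-13 mean) in log2 CPM. For genes called higher with dTAG-13, DMSO had a median position of 0.881 and lay nearer to dTAG-13 in 196 of 209 (93.8%). For genes called lower, its median position was 0.681, with DMSO nearer to dTAG-13 in 255 of 335 (76.1%) and between both groups in 299 (89.3%). Over all genes tested, DMSO was nearer to dTAG-13 in 62.4% and lay between the groups in 44%. The combination had median positions of 0.22 among the higher genes and 0.347 among the lower genes, against 0.295 over all genes.

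**Figure D2:**
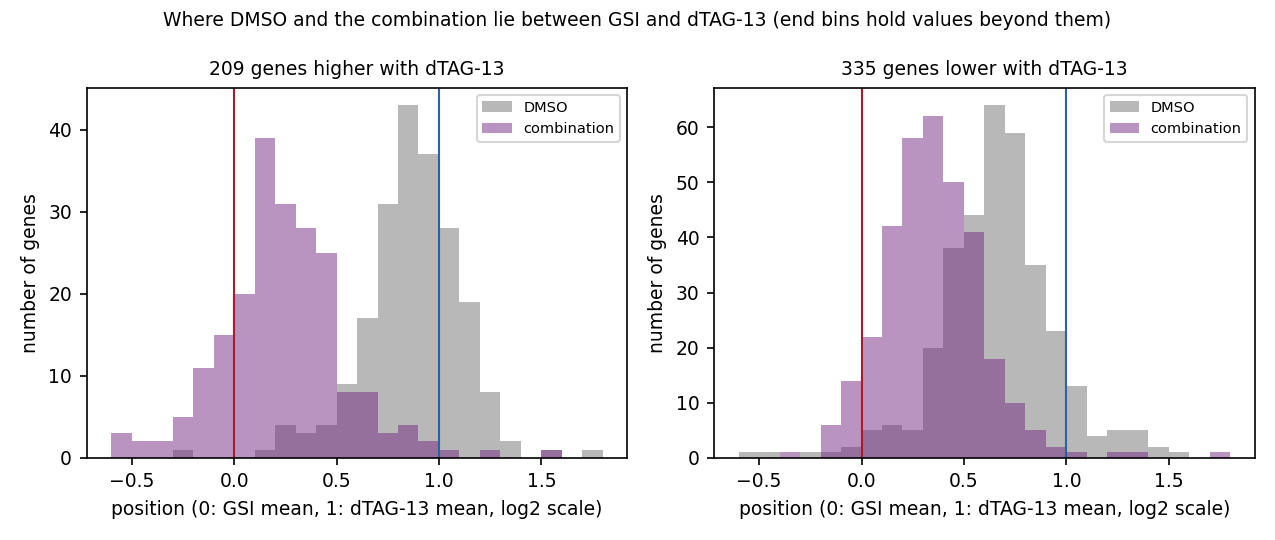
Position of the DMSO mean (grey) and of the combination mean (purple) on a log2 scale where 0 is the GSI mean (red line) and 1 the dTAG-13 mean (blue line), as numbers of genes, for the 209 higher and the 335 lower genes. DMSO piles up close to the dTAG-13 line on the left (median 0.881) and between the lines on the right (median 0.681).

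NOTCH1 target genes lay mostly on the higher side. Of 21 tested targets, 12 were called higher with dTAG-13 and 3 lower, beside 1.34% and 2.14% of all genes. The median difference was 0.72 against -0.00325 for all genes. The 3 members not tested, HES5, HEY1 and MAML2, had at most 9 counts in a library. The list was chosen with earlier results of these data known.

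Among receptors, NOTCH3, itself a NOTCH target, stood at 106 and 98.3 CPM with dTAG-13, 23.7 and 19.2 with GSI, 87.0 and 81.4 with DMSO and 31.1 and 21.0 with the combination. All 4 libraries without GSI were above all 4 libraries with GSI. The difference was 2.25 ± 0.15 (SE, adjusted p = 7.56e-06). NOTCH1, the receptor most often mutated in T-cell leukemia, went the other way by -0.36 (adjusted p = 0.0273), from 135 and 131 CPM with GSI to 107 and 99.5 with dTAG-13. This call was lost without either dTAG-13 library or without GSI replicate 1 (adjusted p up to 0.376).

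HES4, a transcriptional repressor of the HES family, was measured at 78.5 and 92.2 CPM with dTAG-13 and at 9.34 and 14.8 with GSI, with DMSO at 76.3 and 62.7 and the combination at 15.4 and 12.8. Both dTAG-13 libraries were above both DMSO libraries, and the 4 libraries with GSI were far below. HES4 differed by 2.83 ± 0.18 (SE, adjusted p = 3.79e-06). HES1, the repressor whose paired RBPJ cores are printed above, was at 9.40 and 9.51 CPM with dTAG-13, 2.39 and 3.28 with GSI, 12.7 and 12.7 with DMSO and 1.44 and 2.16 with the combination. Its dTAG-13 libraries lay under DMSO and far over GSI, and it differed by 1.74 ± 0.19 (SE, adjusted p = 0.000247). DTX1, a ubiquitin ligase that acts on NOTCH, had the same order: 99.5 and 105 CPM with dTAG-13, 18.3 and 18.9 with GSI, 138 and 154 with DMSO, and 19.7 and 17.0 with the combination. The difference of DTX1 was 2.45 ± 0.10 (SE, adjusted p = 9.19e-08). Against DMSO, dTAG-13 alone gave -0.42 for HES1 and -0.52 for DTX1, neither of which passed the test.

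MYC, the growth regulator through which NOTCH acts in T-cell leukemia, stood at 348 and 352 CPM with dTAG-13, 170 and 190 with GSI, 349 and 340 with DMSO and 200 and 225 with the combination. The dTAG-13 and DMSO libraries overlapped, and the difference from GSI was 0.96 ± 0.09 (SE, adjusted p = 8.09e-05). IGF1R, a growth factor receptor, was at 128 and 117 CPM against 61.7 and 52.9 (difference 1.09). RHOU, a small GTPase, was at 106 and 116 CPM against 45.3 and 42.1 (1.35), and SHQ1, an assembly factor of small nucleolar ribonucleoproteins, at 162 and 170 against 99.2 and 95.8 (0.77). For each of these genes both DMSO libraries were above every GSI library. CR2, the complement receptor CD21, was at 2.30 and 2.61 CPM with dTAG-13 and 0.188 and 0.145 with GSI (3.84), a few counts per GSI library. LZTFL1 (0.56) and IL7R, the interleukin-7 receptor (0.43), completed the higher targets besides PTCRA. IL7R lost its call without either dTAG-13 library or without GSI replicate 2 (adjusted p up to 0.231).

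Not every listed NOTCH target was higher. BCL2, which restrains apoptosis, was called lower (-0.87), at 18.4 and 18.3 CPM with dTAG-13, 32.3 and 34.8 with GSI and 23.0 and 27.1 with DMSO. CCND3, cyclin D3, gave -0.38 (adjusted p = 0.0273), a call lost when any of the 4 compared libraries was left out (adjusted p 0.0527 to 0.248). HEY2 (0.53), HEYL (0.18), NRARP (0.72), FBXW7 (0.05), TRIB2 (-0.07) and CDK6 (-0.22) did not pass. In the wider NOTCH machinery, edgeR and DESeq2 called 0 of 5 gamma-secretase subunits and 0 of 11 members of the NOTCH transcription complex. At an unadjusted p under 0.05 were 1 and 0 of them. Over all genes, edgeR called 3.48%, and 2720 of 15646 had an unadjusted p under 0.05. With so few members, 0 calls is near that share.

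**Figure D3:**
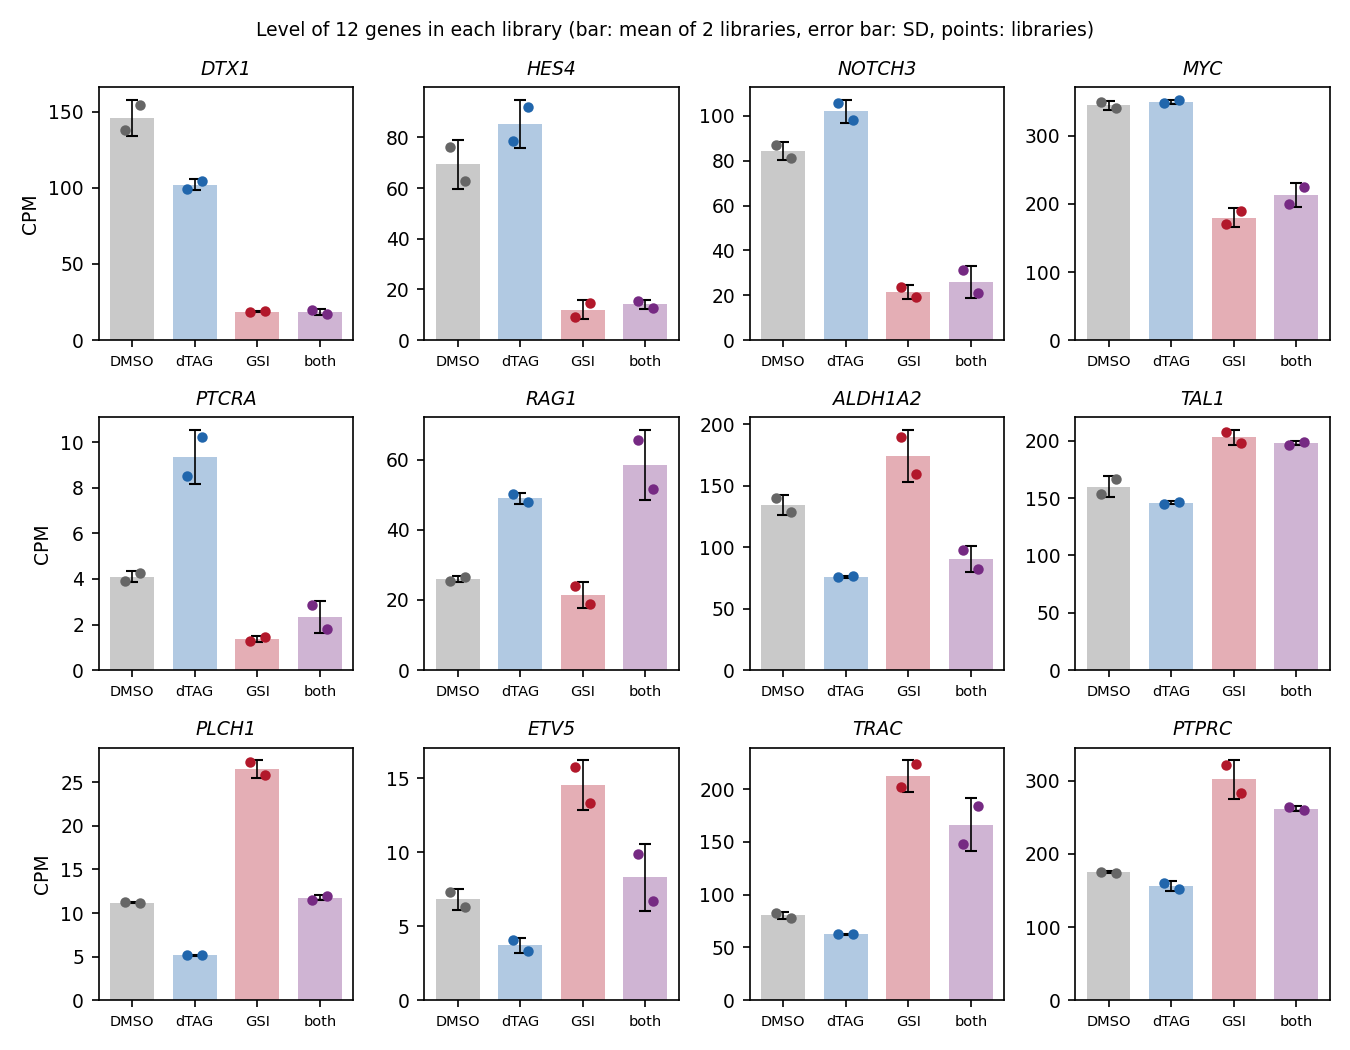
CPM (vertical, from 0) of 12 genes in the 4 groups: points are libraries, bars the mean of 2, error bars the SD; "both" is the combination. NOTCH targets in the top row are low in both groups with GSI. In every panel of the other rows the DMSO mean lies between the dTAG-13 and GSI means.

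The ID genes encode inhibitors that bind E proteins. ID1 was at 15.8 and 18.6 CPM with dTAG-13, 3.38 and 3.91 with GSI, 13.2 and 14.9 with DMSO and 2.93 and 4.22 with the combination. All 4 libraries without GSI were above all 4 with GSI, and dTAG-13 minus GSI was 2.24 ± 0.18 (SE, adjusted p = 2.29e-05). ID3 was at 99.9 and 118 CPM against 50.1 and 63.5 (difference 0.94, adjusted p = 0.000997), and ID2 did not pass (0.00).

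Other genes at the top of the ranking were outside the NOTCH list. TNFRSF4, the T cell costimulatory receptor OX40, was at 16.9 and 22.0 CPM with dTAG-13 and 1.36 and 0.965 with GSI, beside 16.6 and 15.6 with DMSO and 1.63 and 1.77 with the combination. Its difference of 4.05 ± 0.20 (SE, adjusted p = 4.68e-07) was the largest among called genes whose mean reached 5 CPM. SH3TC1 was at 148 and 167 CPM against 25.3 and 25.9 (2.62), with DMSO at 126 and 122 and the combination at 46.2 and 43.5. MYO7B, an unconventional myosin, was at 1641 and 1665 CPM against 497 and 509 (1.72), with DMSO at 1631 and 1634. LCT, lactase, (1.42) and GPR157, an orphan receptor, (1.34) closed this group. In all 5, both GSI-treated groups lay below both other groups.

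Genes reported as activated by TAL1 had negative differences in 13 of 15 tested, beside 7916 of 15646 over all genes. Of these 15, 8 were called lower with dTAG-13 than with GSI and 1 higher, beside 2.14% and 1.34% of all genes. The median was -0.47 against -0.00325 for all genes. Without dTAG-13 replicate 2, 5 were called lower. LMO2, the 1 member not tested, had at most 1 count. Here too the list was chosen with earlier results known. TAL1 transcript itself stood at 145 and 147 CPM with dTAG-13, 208 and 198 with GSI, 154 and 166 with DMSO and 197 and 199 with the combination. Both groups with GSI were above both groups without it. The difference was -0.47 ± 0.08 (SE, adjusted p = 0.00468), lost without either dTAG-13 library (adjusted p up to 0.0767). dTAG-13 acts on the protein, so the transcript does not check the degradation.

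ALDH1A2, a retinoic acid synthesis enzyme, was at 75.5 and 76.3 CPM with dTAG-13, 189 and 159 with GSI, 140 and 129 with DMSO, and 98.1 and 82.7 with the combination. It was low in both groups that had received dTAG-13 and high in both that had not. The direct difference was -1.20 ± 0.11 (SE, adjusted p = 6.19e-05), and dTAG-13 alone also passed against DMSO (-0.82, adjusted p = 0.0253). TSPAN7, a tetraspanin, was at 179 and 193 CPM with dTAG-13, 330 and 305 with GSI, 272 and 240 with DMSO and 242 and 227 with the combination (difference -0.77).

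A second set of TAL1-activated genes had DMSO close to dTAG-13. ARID5B, a chromatin regulator, was at 55.1 and 48.8 CPM with dTAG-13, 107 and 91.8 with GSI, 59.2 and 60.4 with DMSO and 84.6 and 73.6 with the combination (difference -0.94, adjusted p = 0.000339). RUNX1, a partner of TAL1, was at 249 and 238 CPM with dTAG-13 against 433 and 377 with GSI, with DMSO at 274 and 292 (difference -0.73, adjusted p = 0.00101). Against DMSO, GSI alone passed for both (0.74 for ARID5B and 0.52 for RUNX1), and dTAG-13 alone did not (-0.20 and -0.22). UBASH3B, a phosphatase that restrains receptor signalling (-0.65), and GATA3, a T cell transcription factor (-0.52), also had DMSO nearer to dTAG-13 than to GSI. GATA3 lost its call without dTAG-13 replicate 2 (adjusted p = 0.0715).

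ETS2, an ETS family factor, was the member called higher (0.38), and lost its call without either dTAG-13 library or without GSI replicate 2 (adjusted p up to 0.271). The members MYB (-0.31), STAT5A (-0.33), SIX6 (-0.29), CDK6 (-0.22), TRIB2 (-0.07) and LMO1 (0.16) did not pass. Of 13 tested members of the TAL1 complex and core circuit, 4 were called lower and 0 higher, beside 2.14% and 1.34% of all genes. The median of the 13 was -0.07, with 8 negative and 5 positive differences. Those called were TAL1, GATA3 and RUNX1, already counted above among the TAL1-activated genes, and LYL1, a close relative of TAL1 (-0.61, adjusted p = 0.0498). LYL1 lost its call when any of the 4 compared libraries was left out (adjusted p 0.0944 to 0.256) and with DESeq2 (0.104).

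PLCH1, a phospholipase C, was called lower with DMSO between the single treatments. It was at 5.21 and 5.13 CPM with dTAG-13, 27.3 and 25.9 with GSI, 11.3 and 11.1 with DMSO and 11.5 and 11.9 with the combination. The single treatments and DMSO do not overlap, and the combination stood just above DMSO. The direct difference was -2.36 ± 0.12 (SE, adjusted p = 4.68e-07). PLCH1 passed against DMSO in both single treatments, at -1.11 with dTAG-13 (adjusted p = 0.00856) and 1.25 with GSI (adjusted p = 6.71e-05). Of 18 tested phospholipase C and protein kinase C genes, PRKCQ was also lower (-0.44) and PRKCA was higher (0.47), each lost without either dTAG-13 library and without 1 GSI library (replicate 1 for PRKCQ, adjusted p up to 0.226, and replicate 2 for PRKCA, up to 0.189).

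Of 12 tested genes induced by ERK signalling, many of them its feedback inhibitors, 5 were called lower with dTAG-13 and 0 higher. Over all genes, 2.14% were called lower and 1.34% higher. The median of the 12 was -0.49, and 7 did not pass. Without dTAG-13 replicate 1 or 2, 2 were called lower. ETV5, an ETS factor, was at 4.05 and 3.36 CPM with dTAG-13, 15.8 and 13.4 with GSI, 7.33 and 6.31 with DMSO and 9.91 and 6.71 with the combination. DMSO lay between the single treatments, and the difference was -1.97 ± 0.20 (SE, adjusted p = 0.000146). Against DMSO, ETV5 passed with GSI (adjusted p = 0.0107) and not with dTAG-13 (0.42). SPRY4, a Sprouty inhibitor, was at 0.461 and 0.513 CPM against 2.72 and 2.46 (-2.40). The other members called were EGR1 (-1.79), the phosphatase DUSP6 (-1.24) and SPRED2 (-0.53). Those calls were lost without either dTAG-13 library, and for EGR1 also without GSI replicate 1 (adjusted p up to 0.174 for EGR1, 0.122 for DUSP6 and 0.101 for SPRED2).

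Genes of the T cell receptor divided. TRAC, the constant segment of the alpha chain, was at 63.0 and 62.3 CPM with dTAG-13, 202 and 224 with GSI, 82.8 and 78.1 with DMSO and 148 and 184 with the combination. TRAV8-4, a variable segment with near-identical relatives that could share its reads, was at 23.4 and 22.5 against 77.8 and 82.5 CPM. Both were lowest with dTAG-13 and highest with GSI, and they differed by -1.76 ± 0.11 and -1.80 ± 0.10 (SE). Against DMSO, GSI passed for both and dTAG-13 for neither (adjusted p 0.667 for TRAC and 0.147 for TRAV8-4). PTCRA, which encodes the invariant partner of the beta chain before TRAC is expressed, went the other way, at 8.52 and 10.2 CPM with dTAG-13, 1.27 and 1.45 with GSI, 3.93 and 4.27 with DMSO and 2.84 and 1.82 with the combination. Its 3 levels do not overlap either, with a difference of 2.78 ± 0.23 (SE, adjusted p = 3.37e-05). PTCRA passed against DMSO with GSI (adjusted p = 0.00709) and not with dTAG-13 (0.0909). None of the CD3 genes was called.

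Of 20 tested genes of T cell receptor signalling, 9 were called lower with dTAG-13 and 0 higher, beside 2.14% and 1.34% of all genes. The median of the 20 was -0.29. Without dTAG-13 replicate 1 or 2, 3 were called lower, and without GSI replicate 1, 6. PTPRC, the phosphatase CD45, was at 161 and 151 CPM with dTAG-13, 321 and 283 with GSI and 176 and 174 with DMSO (-0.95). RASGRP1, the exchange factor that links the receptor to RAS, was at 125 and 120 CPM against 229 and 219, with DMSO at 116 and 120 (-0.87). The adaptor LCP2 was at 110 and 106 CPM against 169 and 175, with DMSO at 129 and 131 (-0.67). RASGRP1 had dTAG-13 at the DMSO level, while LCP2 had DMSO between. Neither compound alone passed for LCP2 against DMSO (adjusted p 0.998 with dTAG-13 and 0.0518 with GSI).

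Surface molecules had calls in both directions, more of them lower. Over all genes, 2.14% were called lower and 1.34% higher. Of 8 SLAM family genes, 4 were called lower and 0 higher, with a median of -0.68: LY9 (-1.17), CD84 (-0.95), SLAMF6 (-0.80) and the adaptor SH2D1A (-0.55). CD84 was at 65.0 and 61.3 CPM with dTAG-13, 133 and 110 with GSI and 85.8 and 90.2 with DMSO, so DMSO lay between. Of 17 T-lineage surface antigens, 7 were called lower, among them the activation marker CD69 (-1.48), and CD7 was called higher (0.47), with 10 negative and 7 positive differences and a median of -0.05. Without dTAG-13 replicate 1 or 2, 2 or 3 of them were called lower. CD7 lost its call without either dTAG-13 library or without GSI replicate 1 (adjusted p up to 0.262). Of 16 chemokine receptor and egress genes, 6 were called lower and 0 higher, including CCR4 (1.66 and 1.26 against 3.94 and 4.49 CPM, -1.53) and PTGDR2 (-1.30), with a median of -0.20. Without dTAG-13 replicate 1 or 2, 3 of these 16 were called lower.

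CD40LG, the T cell ligand of CD40, had another order. It was at 48.5 and 52.5 CPM with dTAG-13, 68.9 and 67.8 with GSI, 88.8 and 84.3 with DMSO and 32.5 and 35.5 with the combination. DMSO was highest and the combination lowest. Its fall with dTAG-13 passed against DMSO (-0.78, adjusted p = 0.00856), and the direct difference of -0.44 was lost without either dTAG-13 library or without GSI replicate 1 (adjusted p up to 0.166). The death receptor FAS was called lower as well (-0.61, lost without dTAG-13 replicate 2, adjusted p = 0.119).

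Transcription factors of thymocytes had 7 members called lower and 2 higher of 19, beside 2.14% and 1.34% of all genes. Their median was -0.30. The lower calls were 4 without dTAG-13 replicate 1, 3 without dTAG-13 replicate 2 and 4 without GSI replicate 1. TOX was at 134 and 117 CPM with dTAG-13, 244 and 241 with GSI and 158 and 147 with DMSO (-0.94, adjusted p = 7.17e-05). Its relative TOX2 was at 3.18 and 2.24 CPM against 9.01 and 9.89, with DMSO at 4.85 and 4.81 (-1.80). RORB, an orphan nuclear receptor, was at 4.01 and 3.40 CPM against 9.01 and 7.91 (-1.19). All 3 had their highest levels with GSI, and for TOX and TOX2 DMSO lay between the single treatments. Against DMSO, dTAG-13 passed for neither TOX nor TOX2 (adjusted p 0.758 and 0.411). RUNX3 was called higher (0.46) and lost its call when any compared library was left out (adjusted p 0.051 to 0.312).

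The remaining genes at the bottom of the ranking came from several functions. SEMA4A, a semaphorin, was at 6.36 and 4.61 CPM with dTAG-13, 18.4 and 17.9 with GSI, 9.53 and 9.72 with DMSO and 11.1 and 7.05 with the combination (-1.73). C10orf107 (-1.49), the oxygen-regulated factor EPAS1 (-1.40), the adaptor APBB1 (-1.39) and the chromatin reader DPF3 (-1.37) were likewise lowest with dTAG-13 and highest with GSI among the 2 single treatments and DMSO. Against DMSO, GSI passed for each of these and SEMA4A, and dTAG-13 for none (adjusted p 0.471 or more). GZMA, a granule protease, was at 4.15 and 3.73 CPM with dTAG-13, 10.5 and 11.4 with GSI, 8.20 and 6.58 with DMSO and 5.45 and 4.70 with the combination (-1.47). Neither compound alone passed for GZMA against DMSO (adjusted p 0.154 with dTAG-13 and 0.0951 with GSI). Summed natural killer and cytotoxic markers were 48.8 to 52.8 CPM with dTAG-13 and 63.5 to 64.1 with GSI, with NCR1 at 0. Of 6 tested members, 2 were called lower (GZMA and PRF1) and 0 higher, beside 2.14% and 1.34% of all genes. PRF1 lost its call when any compared library was left out (adjusted p 0.0554 to 0.153). Summed B-cell markers were 228 to 276 CPM against 343 to 481, and MS4A1 and PAX5 had at most 4 counts in a library. Of 5 tested members, 3 were called lower (IGLL1, CD79A and IGHM) and 0 higher, beside the same 2.14% and 1.34%. The 3 calls became 0 without dTAG-13 replicate 1 (adjusted p up to 0.194 for IGLL1 and 0.144 for CD79A), 1 without dTAG-13 replicate 2, 2 without GSI replicate 1 and 0 without GSI replicate 2. IGHM lost its call when any compared library was left out (adjusted p 0.0639 to 0.267). The part of other cells in these results was not tested.

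Genes associated with E proteins in thymocytes gave 4 called higher and 1 lower of 18 tested, beside 1.34% and 2.14% of all genes. Their median was 0.16. The higher calls were 2 without dTAG-13 replicate 1, dTAG-13 replicate 2 or GSI replicate 1. RAG1, a recombinase subunit, was at 50.1 and 47.8 CPM with dTAG-13, 24.0 and 18.8 with GSI, 25.4 and 26.6 with DMSO and 65.6 and 51.5 with the combination. All 4 libraries with dTAG-13 were above all 4 without it, another order than that of HES4 or DTX1. The difference was 1.19 ± 0.13 (SE, adjusted p = 0.000349). RAG2, the other subunit, was at 51.5 and 46.6 CPM with dTAG-13, 36.7 and 34.0 with GSI, 35.7 and 28.9 with DMSO and 59.6 and 56.4 with the combination. RAG2 was again higher in all 4 libraries with dTAG-13, but its GSI mean was above its DMSO mean, unlike that of RAG1. Its difference of 0.47 was lost when any compared library was left out (adjusted p 0.0728 to 0.229).

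The other called members were PTCRA, CD1E, a lipid antigen carrier (0.42, lost when any compared library was left out, adjusted p 0.0863 to 0.203), and CD5, a receptor that dampens signalling (-0.37, lost without either dTAG-13 library or GSI replicate 2, adjusted p up to 0.21). CD8A (0.83), CD8B (0.62), CD4 (0.54), CD1B (0.31), CD1D (0.17), SOCS3 (0.16), GFI1 (0.12), CXCR4 (-0.08), DNTT (-0.08), SOCS1 (-0.14), CD6 (-0.21) and CD1A (-0.24) did not pass.

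GIMAP genes are GTPases of lymphocyte survival that lie together and resemble each other. All 7 tested members were positive, beside 7730 of 15646 over all genes, with a median of 0.35. Of the 7, 2 were called higher and 0 lower, beside 1.34% and 2.14% of all genes. GIMAP5 was at 71.3 and 79.2 CPM with dTAG-13, 44.3 and 48.7 with GSI, 97.7 and 94.3 with DMSO and 34.3 and 37.0 with the combination. Here DMSO was highest and the combination lowest, and the difference was 0.70 ± 0.09 (SE, adjusted p = 0.00102). GIMAP4 had the same order of groups (0.39), with a call lost when any compared library was left out (adjusted p 0.0553 to 0.208).

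Growth genes had mostly positive differences, short of the threshold. Of 28 ribosome biogenesis genes, 27 had positive differences, beside 7730 of 15646 over all genes, with a median of 0.35. Of the 28, 4 were called higher and 0 lower, beside 1.34% and 2.14% of all genes. The 4 were MYBBP1A (0.53), BOP1 (0.59), WDR12 (0.38) and POLR1B (0.42). DESeq2 called 8, and 23 had an unadjusted p under 0.05, all of them higher. Each of those calls was lost without either dTAG-13 library or without GSI replicate 1 (adjusted p up to 0.128, 0.211, 0.259 and 0.284), and those of WDR12 and POLR1B also without GSI replicate 2. All 25 ribosomal protein genes were positive, with 0 called by edgeR or DESeq2. Of the 25, 5 had an unadjusted p under 0.05, beside 2720 of 15646 over all genes. The median of the 25 was 0.25. Between single pairs of 1 dTAG-13 and 1 GSI library this median ran from -0.0359 (dTAG-13 replicate 1 with GSI replicate 2) to 0.58, and was 0.353 and 0.161 between libraries of the same number. Of 25 nucleotide and polyamine synthesis genes 1 was called, which is near the 3.48% called over all genes, and DESeq2 called 3, with 16 at an unadjusted p under 0.05. The called gene was IMPDH2 (0.43, lost without either dTAG-13 library or GSI replicate 1, adjusted p up to 0.221).

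Among cell cycle genes, the inhibitor CDKN2D was at 33.1 and 34.5 CPM with dTAG-13, 57.1 and 64.8 with GSI and 35.9 and 36.5 with DMSO (-0.85, adjusted p = 0.00102). Its dTAG-13 libraries were just under DMSO. Of 24 mitosis genes 22 had negative differences, beside 7916 of 15646 over all genes, with a median of -0.12. edgeR called 0 of them and DESeq2 1, and 9 were at an unadjusted p under 0.05. edgeR called 3.48% of all genes. It called 0 of 26 DNA replication, 21 cholesterol, 20 amino acid stress, 19 chaperone, 16 interferon-stimulated and 13 mitochondrially encoded genes. At an unadjusted p under 0.05 were 1, 1, 5, 6, 3 and 1 of them, beside 2720 of 15646 over all genes. DESeq2 called 1, a chaperone. In the MYC network of 12 genes, 3 were called, beside 3.48% of all genes. The median of the 12 was 0.02, with 7 positive and 5 negative differences. Those called were MYC, and MXD3 (-0.58) and MXI1 (0.59), which bind MAX and oppose MYC. MXD3 was lost without either dTAG-13 library or GSI replicate 2 (adjusted p up to 0.211), MXI1 without dTAG-13 replicate 1 or GSI replicate 2 (up to 0.148).

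A few members of other lists were called. In the IL7R and STAT5 pathway, IL4R (2.99 and 1.72 against 4.55 and 4.92 CPM) and the kinase JAK3 (-0.48) were lower, each lost without dTAG-13 replicate 2 and without GSI replicate 1, IL4R also without GSI replicate 2 and JAK3 also without dTAG-13 replicate 1 (adjusted p up to 0.389 and 0.328). BCL2L11, the apoptosis activator BIM, was higher (0.45, lost without either dTAG-13 library or GSI replicate 2, adjusted p up to 0.193). The glucose carrier SLC2A3 was lower (-0.78, lost without dTAG-13 replicate 2 or GSI replicate 1, adjusted p up to 0.171), and so was IKZF1, the lymphoid factor Ikaros (-0.38, lost without either dTAG-13 library or GSI replicate 1, adjusted p up to 0.387).

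**Figure D4:**
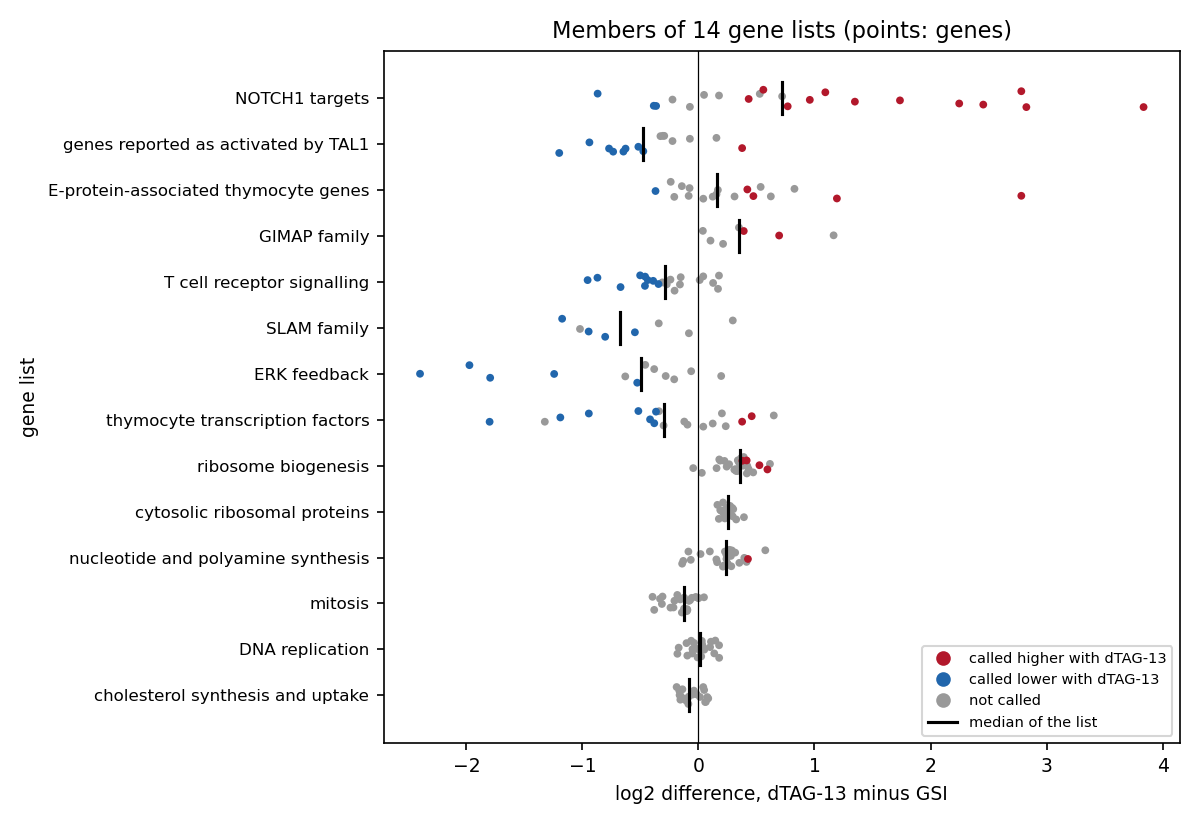
Log2 difference of dTAG-13 minus GSI (horizontal) for the members of 14 gene lists (rows); points are genes, coloured when called, and the black bar is the median of the list. NOTCH1 targets sit to the right (median 0.72), TAL1-activated genes to the left (median -0.47), and ribosomal protein genes form a narrow band to the right (median 0.25) with 0 called.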

How the data were processed

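Strand-specific paired-end RNA-seq covered 8 Jurkat samples with tagged TAL1, per the labels' protocols. The authors deposited a table of whole-number counts per gene and library. STAR 2.5.2a, featureCounts, DESeq2 1.12.4 and hg19 are named in the submitters' processing notes. Neither the strand setting of the counting nor its annotation is stated there, so overlapping genes are uncertain. The authors' tables of treatments against DMSO were not used here.

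Counts were filtered with filterByExpr, scaled by TMM and fitted with edgeR 4.0.16 (R 4.3.3, limma 3.58.1; glmQLFit robust) as 4 groups over all 8 libraries, with 4 residual degrees of freedom, and dTAG-13 was contrasted with GSI. Common biological variation was 0.0804. The fit was tested on simulated data. Alternatives were DESeq2 1.42.0, its size factors, no filter, the 4 compared libraries alone, a replicate block and leaving out each compared library.

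Named genes were the 12 highest and 12 lowest called genes whose groups did not overlap and whose mean reached 5 CPM, a fixed set, up to 3 called members per list and direction, and every member of the NOTCH1, TAL1 and E-protein lists, of which a few are not reported here. The members and lists were chosen with earlier results of these data known. EGR1, DUSP6, LYL1, SH2D1A, BOP1, ID2, PRF1, CD79A, IGHM and IGLL1 fall outside this rule and were named after their values were seen. Promoters came from a RefSeq table (GRCh38.p14), which held 77 of the 103 named genes.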

Additional observations from a re-analysis of the deposited data

How the results depend on the processing

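No call of the direct comparison changed sign under any alternative run. The numbers higher and lower with dTAG-13 were 209 and 335, and 212 and 327 with DESeq2 size factors, 244 and 335 with DESeq2's test, 602 and 539 with no filter on low counts, and 106 and 196 with the 4 compared libraries alone. Leaving out 1 library gave 59 to 311 higher and 102 to 344 lower. With the replicate number as a block they were 489 and 551 over all 8 libraries and 1467 and 1219 over the 4 compared libraries. The labels do not say that a number marks a shared culture or day. Deviations of same-numbered libraries correlated at 0.151 between dTAG-13 and GSI, 0.138 between dTAG-13 and the combination and 0.214 between GSI and the combination, and at -0.0304, -0.108 and -0.0398 between DMSO and dTAG-13, GSI and the combination. Of 87 named genes called, 51 were called in every alternative and 36 lost the call without 1 or more of the compared libraries. Reversed values, none of them called, came from leaving out 1 library, over which the differences ran from -0.06166 to 0.1491 for FBXW7, from -0.08612 to 0.4453 for LMO1, from -0.166 to 0.5654 for SOCS3 and from -0.0679 to 0.06863 for ID2. The cause was not tested. Depth limits genes with few counts, such as CR2 with GSI.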
